A study of Mus musculus with 22 samples.

Results

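RNA of 36 genes that mark B cells or antibody-secreting plasma cells was followed in 22 mouse pancreatic tumours. The genes form a fixed list of names, and all 36 were found in a table of 17966 genes. They were divided by textbook role into 24 genes of B cells, 4 genes used at both stages (Pou2af1, Ikzf3, Tnfrsf13b and Cd38) and 8 genes of plasma cells (Mzb1, Jchain, Irf4, Xbp1, Prdm1, Sdc1, Derl3 and Tnfrsf17). Of the 36, 34 had a normalized count of at least 10 in at least 5 tumours and were tested. Cd79a and Cd72 were not.

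The tumours grew in the pancreas from implanted PDA.7940B cells, a polyclonal line from the KPC model of pancreatic ductal adenocarcinoma, and every sample was labelled WT for genotype. The combination group (n = 5) received beta-glucan and anti-CD40, with no doses stated. The anti-CD40 group (n = 6) received 1 intraperitoneal dose of 0.1 mg of the FGK45 antibody, an agonist of CD40. The beta-glucan group (n = 6) received 1 intravenous dose of 1.2 mg of this glucose polymer, a kind found in fungal cell walls that myeloid cells recognise, and the last group was untreated (n = 5). Treated tumours were taken 10 days after treatment. The labels give neither the age, sex and strain of the hosts nor whether each tumour came from its own mouse, and the p-values therefore speak only of the spread among the sampled tumours, which may be technical. In bulk tumour RNA, fewer cells of a type and less RNA per cell cannot be told apart.

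B cells carry a surface immunoglobulin whose signal is passed on by the CD79A and CD79B chains, and the transcription factors Pax5 and Ebf1 hold their identity. CD40 is itself a B cell receptor: when it is engaged, by T cells or by an agonist antibody, B cells are activated and can go on to become plasma cells. That step turns Pax5 and Bach2 down and Irf4, Prdm1 and Xbp1 up, enlarges the endoplasmic reticulum and fills it with immunoglobulin, which the J chain links into polymers.

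Most B cell genes and most plasma cell genes were called higher than in untreated tumours after anti-CD40, given with beta-glucan or alone. After beta-glucan alone a minority were: 5 of 22 tested B cell genes and 3 of 8 plasma cell genes, where 5.09% of all tested genes were called higher. Jchain, the immunoglobulin joining chain, averaged 5053 ± 2165 normalized counts in the combination, 2795 ± 1076 after anti-CD40, 361 ± 494 after beta-glucan and 30.1 ± 13.7 in untreated tumours (SD, n = 5, 6, 6 and 5). Ms4a1, the B cell antigen CD20, averaged 188 ± 91.6, 152 ± 65.8, 28.5 ± 34.2 and 7.66 ± 13.5 normalized counts in the same groups and order. Among the plasma cell genes, Xbp1 was called in a single comparison (the combination against untreated), Prdm1 in none, and Sdc1 fell.

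Each member was tested in a limma fit over all 14278 tested genes, with Benjamini-Hochberg adjustment within each comparison and a threshold of 0.05. Against untreated tumours, the combination raised 31 of the 34 tested members and lowered 1, Sdc1. Over all tested genes, 18.2% were called higher and 15.8% lower in that comparison. Anti-CD40 raised 27 members and lowered 1, again Sdc1, where 11% of all tested genes were called higher and 7.56% lower. Beta-glucan raised 11 members and lowered none, where 5.09% of all tested genes were called higher and 1.32% lower. All 3 comparisons use the same 5 untreated tumours. The beta-glucan count depended on single tumours: it was 7 without untreated tumour 2, without untreated tumour 3 or without beta-glucan tumour 5. It was 5 when each tumour was scaled to an equal total. For these alternative fits the share of all tested genes called is not given here. A member could enter the test through the treated groups alone: 7 of the 34 had no untreated tumour at 10 or more, and 14 had all 5. The 7 were Pax5, Fcrla, Fcer2a, Tnfrsf13c, Vpreb3, Cd180 and Tnfrsf17.

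**Figure D1:**
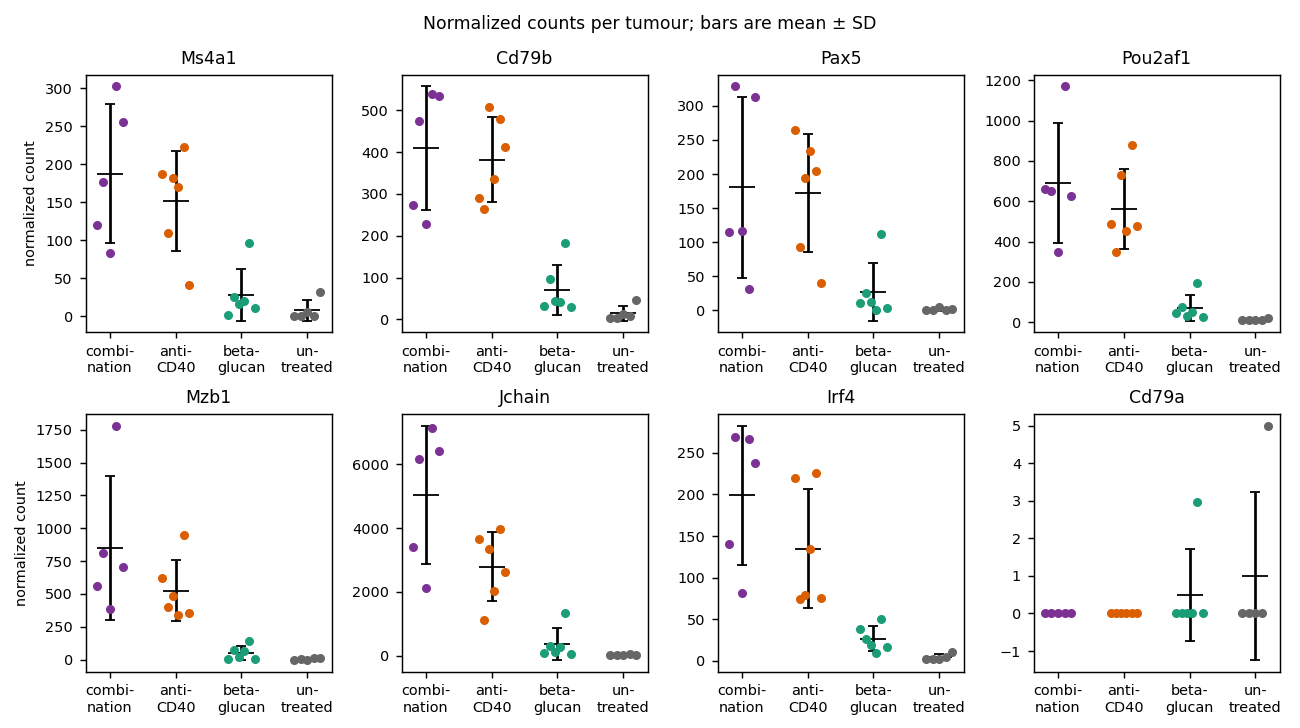
Normalized counts of 8 genes in each tumour (points) with the group mean and SD (bars), for combination (n = 5), anti-CD40 (n = 6), beta-glucan (n = 6) and untreated (n = 5) tumours. Jchain runs between 2122 and 7154 in the combination and between 14.04 and 48.1 in untreated tumours, whereas Cd79a is at 0 in every tumour given anti-CD40.

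Of the signalling chains of the B cell receptor, Cd79b was counted in every tumour and Cd79a in almost none. Cd79b (GRCm38 chr11:106311341-106314762, minus strand) had 274, 474, 228, 538 and 534 normalized counts in combination tumours 1 to 5. After anti-CD40 it ran from 263 through a median of 375 to 508, and after beta-glucan from 29.7 through 42.5 to 183. Untreated tumours 1, 2, 3, 5 and 6 had 3.33, 3.45, 12.3, 9.16 and 46.3. Every tumour given anti-CD40, alone or combined, was above every untreated one, and untreated tumour 6 reached into the beta-glucan range. The log2 fold change of Cd79b against untreated was 5.21 ± 0.54 (SE) in the combination (limma adjusted p = 1.49e-07), 5.16 ± 0.51 after anti-CD40 (adjusted p = 3.78e-07) and 2.44 ± 0.51 after beta-glucan (adjusted p = 0.00428). A log2 fold change here is a difference of group means of log2(normalized count + 1).

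Cd79a (chr7:24897381-24902197, plus strand), which codes for the partner of CD79B in the same complex, was at 0 in all 5 combination and all 6 anti-CD40 tumours. It was also at 0 in all but 1 of the beta-glucan and all but 1 of the untreated tumours, which had 2.98 and 5.01 normalized counts (beta-glucan tumour 5 and untreated tumour 6). Over each whole group Cd79a had 0, 0, 3 and 4 reads in the combination, anti-CD40, beta-glucan and untreated tumours. Its lack of counts was thus common to all groups, also where Cd79b had up to 538 normalized counts, and no fold change is given. Cd72 (chr4:43446462-43454628, minus strand), an inhibitory co-receptor of B cells, reached at most 8.62 in any tumour. In the GENCODE M21 annotation no other gene overlaps Cd79a, and Tesk1 on the opposite strand overlaps the last 500 bases of Cd72, where these 3′ libraries read. Strand use in counting is not given in the sources used here, and the cause of the near absence of both genes was not tested.

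Ms4a1 (chr19:11249675-11266241, minus strand) had 119.6, 177, 83.4, 303 and 256 normalized counts in combination tumours 1 to 5. It ran from 40.7 through 176 to 223 after anti-CD40 and from 1.99 through 18.2 to 96.3 after beta-glucan, and was 0, 0.863, 6.14, 0 and 31.3 in untreated tumours 1, 2, 3, 5 and 6. All 11 tumours given anti-CD40 were above every untreated tumour, and only beta-glucan tumour 5 was above untreated tumour 6. The log2 fold change was 5.66 ± 0.85 in the combination (limma adjusted p = 1.73e-05) and 5.33 ± 0.81 after anti-CD40 (adjusted p = 5.83e-05). After beta-glucan it was 2.41 ± 0.81 and missed the threshold (adjusted p = 0.079). Without untreated tumour 6 its adjusted p was 0.00594, and without beta-glucan tumour 1 it was 0.0271. The 3′ end of Ms4a1 overlaps an antisense gene, 4930526L06Rik, which is not among the genes analysed here, and without strand their reads cannot be told apart.

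The other receptors, adaptors and surface proteins of B cells were higher under anti-CD40, with and without beta-glucan, with few exceptions. Cd22, a sialic acid-binding inhibitory receptor, averaged 462 ± 126 normalized counts in the combination, 325 ± 157 after anti-CD40, 92.4 ± 35.9 after beta-glucan and 44.4 ± 29.1 in untreated tumours. Cr2, the complement receptor CD21 of B cells and follicular dendritic cells, averaged 186 ± 49.1, 210.1 ± 117, 39.7 ± 41.5 and 13.8 ± 6.63 in the same groups. Blnk, the adaptor that links the receptor's kinases to their targets, averaged 378 ± 141, 199.8 ± 141, 88.4 ± 36.4 and 31.7 ± 27.5. Of these, Blnk and Cd22 were also called higher after beta-glucan and Cr2 was not. Fcer2a (the IgE receptor CD23), Blk (a Src-family kinase), Fcrla (an Fc receptor-like protein kept inside the cell), Bank1 (a scaffold of receptor signalling), Cd37 (a tetraspanin), Btla (an inhibitory receptor), Vpreb3, Siglecg (an inhibitory lectin) and Ly86 (the partner of CD180) were all called higher against untreated in the combination and after anti-CD40. The smallest of these log2 fold changes under anti-CD40 was 1.29 ± 0.35 for Ly86 (limma adjusted p = 0.0119) and the largest 4.58 ± 0.90 for Fcrla (adjusted p = 0.000868), which had no untreated tumour at 10 or more. The call of Fcer2a under anti-CD40 (adjusted p = 0.0243) was lost without untreated tumour 2 (0.0659), untreated tumour 6 (0.0552) or anti-CD40 tumour 5 (0.0591). That of Ly86 under anti-CD40 was lost with the mean log2 level of a list of pancreatic acinar genes as a covariate (0.80, limma adjusted p = 0.189). It was also lost when each tumour was scaled to an equal total (0.72, adjusted p = 0.222). Cd37 overlaps Tead2, and Cd180 overlaps Mast4, at their 3′ ends on opposite strands, so their counts are uncertain. Tead2 averaged 727 ± 352 normalized counts in the combination, 1098 ± 899 after anti-CD40, 792 ± 132 after beta-glucan and 989 ± 544 in untreated tumours. Mast4 averaged 426 ± 102, 471 ± 176, 721 ± 116 and 552 ± 104 in the same groups. The 3′ end of Bank1 overlaps an antisense gene, Gm31243, which is not among the genes analysed here. The part of overlapping genes in these counts was not tested.

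Cd180, a receptor of the Toll-like family, was called higher in the combination (log2 fold change 3.29 ± 0.85, limma adjusted p = 0.00431) and not under anti-CD40 alone (1.70 ± 0.82, adjusted p = 0.158). Without anti-CD40 tumour 6, which had no Cd180 reads, anti-CD40 against untreated gave an adjusted p of 0.0237. The difference between the combination and anti-CD40 was itself not called (log2 difference 1.59, 95% interval -0.01 to 3.20, adjusted p = 0.358). Ralgps2, a guanine nucleotide exchange factor, was called in no comparison: it averaged 286 ± 39.0, 324 ± 81.6, 237 ± 46.3 and 307 ± 112 normalized counts in the combination, anti-CD40, beta-glucan and untreated groups.

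The transcription factors of the B cell state were less uniform than the receptors. Pax5, Spib and Pou2f2 were called higher in the combination and under anti-CD40, Ebf1 and Bach2 in the combination, and none of the 5 after beta-glucan. Pax5 (chr4:44524757-44710487, minus strand), the factor that commits cells to the B lineage, had 115, 329, 116, 30.6 and 313 normalized counts in combination tumours 1 to 5. It ran from 40.7 through 199 to 265 after anti-CD40 and from 0 through 11.0 to 112 after beta-glucan, and was 0, 0.863, 5.26, 0 and 2.50 in untreated tumours. All 11 tumours given anti-CD40 were above all untreated ones, and within beta-glucan only tumour 5 was above 100. Its log2 fold change was 6.003 ± 0.91 in the combination (limma adjusted p = 2.1e-05), 6.12 ± 0.88 after anti-CD40 (adjusted p = 2.85e-05) and 2.43 ± 0.88 after beta-glucan, which was not called (adjusted p = 0.105; 0.0155 without beta-glucan tumour 4).

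Spib, an Ets factor of B cells and plasmacytoid dendritic cells, averaged 149 ± 31.5 normalized counts in the combination, 148 ± 72.3 after anti-CD40, 33.6 ± 39.0 after beta-glucan and 10.9 ± 8.22 in untreated tumours. Pou2f2, the octamer-binding factor Oct-2, averaged 204 ± 41.3, 155 ± 49.5, 91.4 ± 23.9 and 57.2 ± 20.5. Both were called higher in the combination and under anti-CD40. Ebf1, which works with Pax5 and is also made by stromal cells, averaged 256 ± 59.6, 181 ± 80.9, 183 ± 90.7 and 82.0 ± 5.22 normalized counts, and Bach2, a repressor of the plasma cell programme, averaged 177 ± 61.1, 109 ± 53.3, 95.3 ± 21.0 and 68.2 ± 21.8. Ebf1 and Bach2 were called higher in the combination only (adjusted p = 0.00204 and 0.00243), and for both the combination and anti-CD40 did not differ past the threshold (adjusted p = 0.4 and 0.221). Without anti-CD40 tumour 2, Ebf1 was also called under anti-CD40 (limma adjusted p = 0.00257). With equal totals, Pou2f2 lost its call under anti-CD40 (limma adjusted p = 0.141). Ebf1 (0.0944) and Bach2 (0.169) then lost theirs in the combination.

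Pou2af1 had the smallest p of the members in both comparisons of anti-CD40-treated with untreated tumours. Its product OBF-1 is the B cell coactivator that joins Oct-1 or Oct-2 on the octamer motif, and it is used by B cells and plasma cells alike. Pou2af1 (chr9:51213708-51240080, plus strand) had 659, 649.9, 349, 1170.2 and 627 normalized counts in combination tumours 1 to 5 and ran from 348 through 480.5 to 877 after anti-CD40. It ran from 27.8 through 49.0 to 196 after beta-glucan and was 11.6, 10.4, 10.5, 10.3 and 21.3 in untreated tumours. The treated groups lay wholly above the untreated one, and both groups given anti-CD40 lay wholly above beta-glucan. Against untreated, the log2 fold change of Pou2af1 was 5.596 ± 0.41 in the combination (limma adjusted p = 5.7e-09), 5.33 ± 0.39 after anti-CD40 (adjusted p = 1.39e-08) and 2.09 ± 0.39 after beta-glucan (adjusted p = 0.00168). Ikzf3, the lymphoid factor Aiolos, averaged 127 ± 43.3, 101 ± 36.5, 16.1 ± 9.14 and 11.8 ± 9.04 in the combination, anti-CD40, beta-glucan and untreated groups, and was called higher in the combination and under anti-CD40.

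Since Pou2af1 and Pou2f2 both act through the octamer ATTTGCAT, the RefSeq promoters of the members (GRCm38.p6, 250 bases before to 50 after the start) were searched for it on both strands. Promoters of 31 members were held in the table used, and 2 of them had the octamer, Blnk and Vpreb3, which is 6.45% of those members against 1.97% of 27025 genes. They are shown because they hold the octamer, 5′ to 3′ on the gene's strand with the octamer in capitals, at bases -130 and -45 from the start:
Blnk chr19:40994172-40994471, minus strand: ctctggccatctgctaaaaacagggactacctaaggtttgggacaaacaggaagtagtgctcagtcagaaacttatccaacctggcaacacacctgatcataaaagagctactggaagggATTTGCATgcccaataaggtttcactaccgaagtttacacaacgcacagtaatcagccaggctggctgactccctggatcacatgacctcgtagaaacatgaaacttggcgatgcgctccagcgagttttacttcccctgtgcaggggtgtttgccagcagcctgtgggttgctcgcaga
Vpreb3 chr10:75948050-75948349, plus strand: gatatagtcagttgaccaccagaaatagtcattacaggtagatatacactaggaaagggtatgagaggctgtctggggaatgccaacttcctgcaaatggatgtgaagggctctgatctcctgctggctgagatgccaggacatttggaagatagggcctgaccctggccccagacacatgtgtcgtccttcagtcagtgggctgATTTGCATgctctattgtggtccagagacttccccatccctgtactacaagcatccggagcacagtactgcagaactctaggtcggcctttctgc
The EBF1 core CCCNNGGG, which reads the same on both strands, was in the promoters of Bank1, Cd22, Sdc1 and Spib, 4 of 31 members or 12.9%, against 15.4% of genes. A match is a description of these windows and does not show that a factor binds there. Vpreb3 averaged 48.0 ± 15.1, 46.2 ± 25.4, 5.66 ± 6.55 and 1.72 ± 2.23 normalized counts in the combination, anti-CD40, beta-glucan and untreated groups.

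The receptors for the survival factors BAFF and APRIL mark successive stages. Tnfrsf13c, the BAFF receptor of mature B cells, averaged 60.0 ± 46.6 normalized counts in the combination, 70.0 ± 31.7 after anti-CD40, 10.4 ± 15.1 after beta-glucan and 1.16 ± 1.65 in untreated tumours. Tnfrsf13b, the receptor TACI of activated B cells and plasma cells, averaged 257 ± 44.8, 186 ± 48.5, 105 ± 35.4 and 34.4 ± 7.85, and was called higher in all 3 treated groups. Tnfrsf17, the plasma cell receptor BCMA, had 23.2, 32.9, 18.3, 41.2 and 25.2 normalized counts in combination tumours 1 to 5, ran from 0 through 8.31 to 22.4 after anti-CD40 and from 0 through 0.475 to 4.24 after beta-glucan, and had no reads in any untreated tumour. Its mean was at least 48.5-fold higher in the combination and at least 15.8-fold higher after anti-CD40 than a floor of 3 reads over the untreated group allows, a bound that covers counting error only. Limma called Tnfrsf17 higher in the combination (adjusted p = 0.00011) and under anti-CD40 (adjusted p = 0.0344). The call under anti-CD40 was lost, with an adjusted p of up to 0.0818, without any 1 of untreated tumours 1, 2, 3 and 5 or anti-CD40 tumours 1, 3, 4 and 5. Cd38, an ectoenzyme of both stages that other leukocytes also carry, averaged 542 ± 217, 319.7 ± 151, 324 ± 86.5 and 108 ± 49.3 normalized counts, so that beta-glucan and anti-CD40 alone lay at the same mean. It was called higher in all 3 treated groups. With equal totals it lost its call under anti-CD40 (limma adjusted p = 0.21) and after beta-glucan (0.133).

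**Figure D2:**
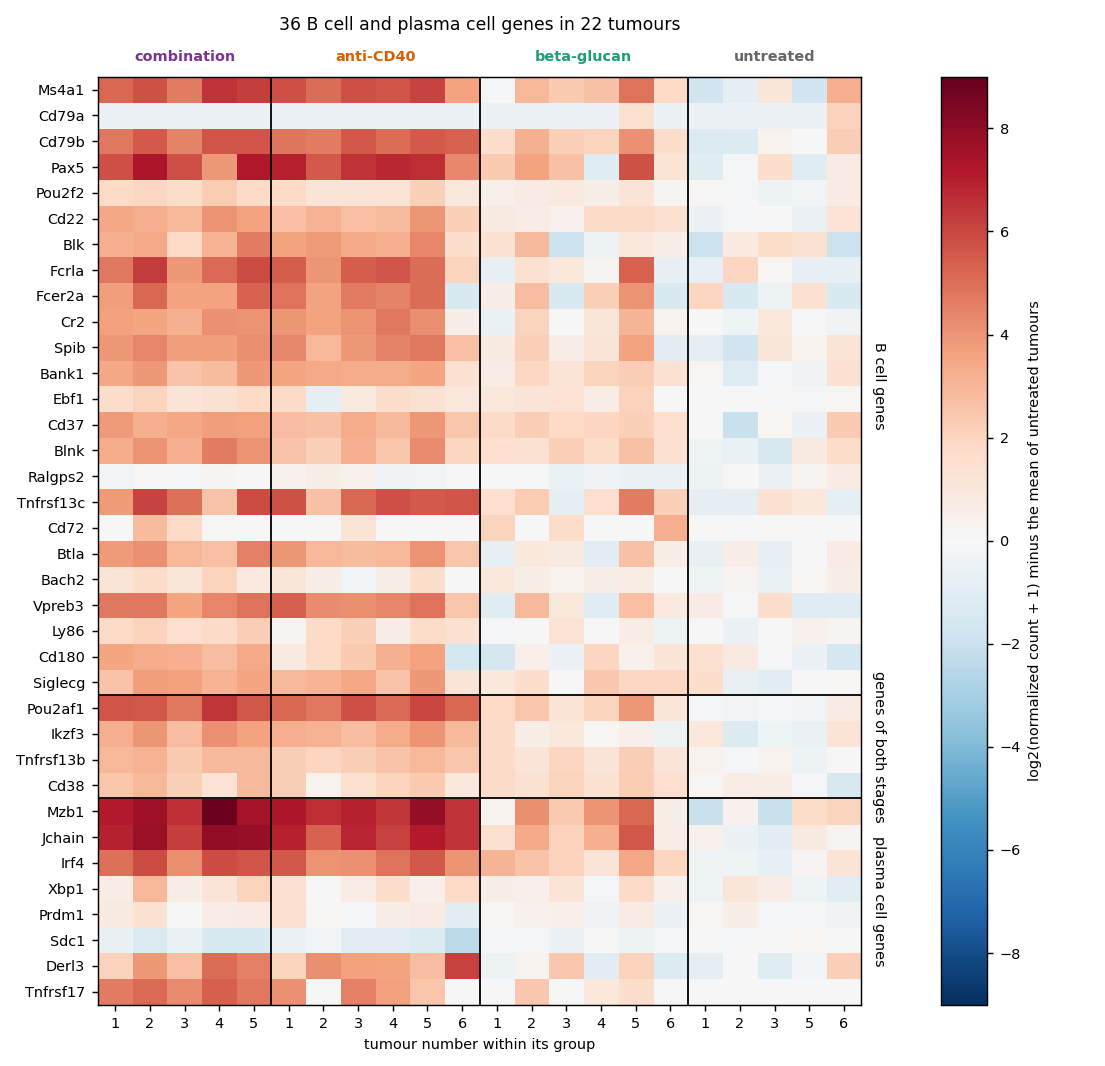
Level of each of the 36 genes (rows) in each of the 22 tumours (columns), as log2(normalized count + 1) minus the mean of the untreated tumours. Red is higher and blue lower. Most rows are red in all 11 tumours given anti-CD40, Ralgps2 is pale throughout, Cd79a is pale except in beta-glucan tumour 5 and untreated tumour 6, and Sdc1 is light blue in tumours given anti-CD40.

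Jchain and Mzb1, genes of antibody secretion, had the largest log2 fold changes of all members in the combination and after anti-CD40. Jchain (chr5:88519809-88527891, minus strand) had 3419, 6166, 2122, 7154 and 6405 normalized counts in combination tumours 1 to 5 and ran from 1126 through 2992 to 3965 after anti-CD40. It ran from 43.1 through 199 to 1346 after beta-glucan and was 36.6, 19.0, 14.04, 48.1 and 32.6 in untreated tumours. All 11 tumours given anti-CD40 were above every untreated tumour, and beta-glucan tumour 5, at 1346, reached into the anti-CD40 range. For Jchain the log2 fold change was 7.34 ± 0.66 in the combination (limma adjusted p = 8.64e-08), 6.50 ± 0.63 after anti-CD40 (adjusted p = 6.44e-07) and 2.74 ± 0.63 after beta-glucan (adjusted p = 0.0108).

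Mzb1, a chaperone of the endoplasmic reticulum that helps immunoglobulin assemble, had 561, 812, 388, 1781 and 707 normalized counts in combination tumours 1 to 5. It ran from 339.9 through 444 to 945 after anti-CD40 and from 3.98 through 43.2 to 144 after beta-glucan, and was 0, 4.32, 0, 11.5 and 15.0 in untreated tumours. The groups given anti-CD40 did not overlap with the other groups, and beta-glucan and untreated tumours overlapped. Spata24, on the same strand, overlaps the 3′ end of Mzb1, so their reads can be confused. Spata24 averaged 45.0 ± 32.1 normalized counts in the combination, 75.1 ± 34.3 after anti-CD40, 47.5 ± 18.3 after beta-glucan and 39.7 ± 11.0 in untreated tumours. The log2 fold change of Mzb1, 7.52 ± 0.87 in the combination (limma adjusted p = 1.36e-06) and 6.93 ± 0.83 after anti-CD40 (adjusted p = 6.37e-06), was the largest of the members in both comparisons. Mzb1 was at 0 in untreated tumours 1 and 3, so the size of its change depends on the 1 added before taking logs. After beta-glucan its log2 fold change was 2.77 ± 0.83 and only just passed (adjusted p = 0.0494). That call was lost, with an adjusted p of up to 0.158, without any 1 of untreated tumours 1 to 3, beta-glucan tumours 2 to 5, anti-CD40 tumours 1 to 4 and 6, or combination tumours 1 to 3 and 5. Further beta-glucan calls rested on single tumours as well. Cd22 (adjusted p = 0.0499) lost its call in 17 of 22 fits without 1 tumour, with an adjusted p of up to 0.152, and kept it only without untreated tumour 6, beta-glucan tumour 3, anti-CD40 tumour 5 or 6, or combination tumour 4. Bank1 (adjusted p = 0.0368) lost it without any 1 of untreated tumours 1, 2, 3 and 5 and beta-glucan tumours 2 to 5, with an adjusted p of up to 0.116. Blnk (adjusted p = 0.0195) lost it without untreated tumour 1, 2 or 3 or beta-glucan tumour 5, with an adjusted p of up to 0.0693.

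Irf4 (chr13:30749226-30766976, plus strand), a factor needed for plasma cells and also induced in activated T cells and myeloid cells, had 140.2, 269, 81.7, 267 and 238 normalized counts in combination tumours 1 to 5. It ran from 73.7 through 107 to 226 after anti-CD40 and from 9.50 through 22.6 to 49.7 after beta-glucan, and was 2.50, 2.59, 1.75, 4.58 and 10.0 in untreated tumours. The tumours given anti-CD40 were above all others, and beta-glucan met the untreated group only at its lowest tumour. Irf4 had a log2 fold change of 5.30 ± 0.50 in the combination (limma adjusted p = 5e-08), 4.71 ± 0.48 after anti-CD40 (adjusted p = 4.1e-07) and 2.38 ± 0.48 after beta-glucan (adjusted p = 0.00284).

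The remaining genes of the plasma cell list are shared with other secretory or epithelial cells, and they did not move together. Derl3 (chr10:75893413-75895941, plus strand), which takes part in the disposal of misfolded proteins from the endoplasmic reticulum, had 138, 495, 216, 1083 and 760.4 normalized counts in combination tumours 1 to 5. It ran from 130.2 through 419 to 2358 after anti-CD40 and from 13.4 through 31.6 to 179.7 after beta-glucan, and was 18.3, 31.1, 14.9, 26.3 and 148 in untreated tumours. The highest value, 2358, was in anti-CD40 tumour 6, which held the most acinar RNA. Derl3 was called higher in the combination (log2 fold change 3.65 ± 0.82, limma adjusted p = 0.00162) and after anti-CD40 (3.73 ± 0.79, adjusted p = 0.00204), not after beta-glucan (0.35 ± 0.79, adjusted p = 0.865).

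Acinar cells, which make the digestive enzymes of the pancreas, are rich in endoplasmic reticulum, and their RNA was spread unevenly. A list of 25 acinar genes took 0.595% to 35.8% of all normalized counts in combination tumours (median 28.6%), 0.631% to 66.6% after anti-CD40 (median 30.4%), 0.567% to 17.4% after beta-glucan (median 2.65%) and 0.0383% to 17.5% in untreated tumours (median 3.04%). With the mean log2 level of that list as a covariate, the log2 fold change of Derl3 was 1.98 in the combination (limma adjusted p = 0.0261) and 2.05 after anti-CD40 (adjusted p = 0.0369), whereas that of Jchain was 7.08 and 6.25. Without the 5 tumours above 30% acinar (combination 4 and 5 and anti-CD40 2, 3 and 6, a choice made after seeing the data), Derl3 gave 2.89 in the combination and 2.78 after anti-CD40, and Jchain 6.96 and 6.76. Without those 5 tumours 31 members were called in the combination, 30 after anti-CD40 and 11 after beta-glucan. The share of all tested genes called in that fit is not given here, so nothing is read from these counts about the members.

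**Figure D3:**
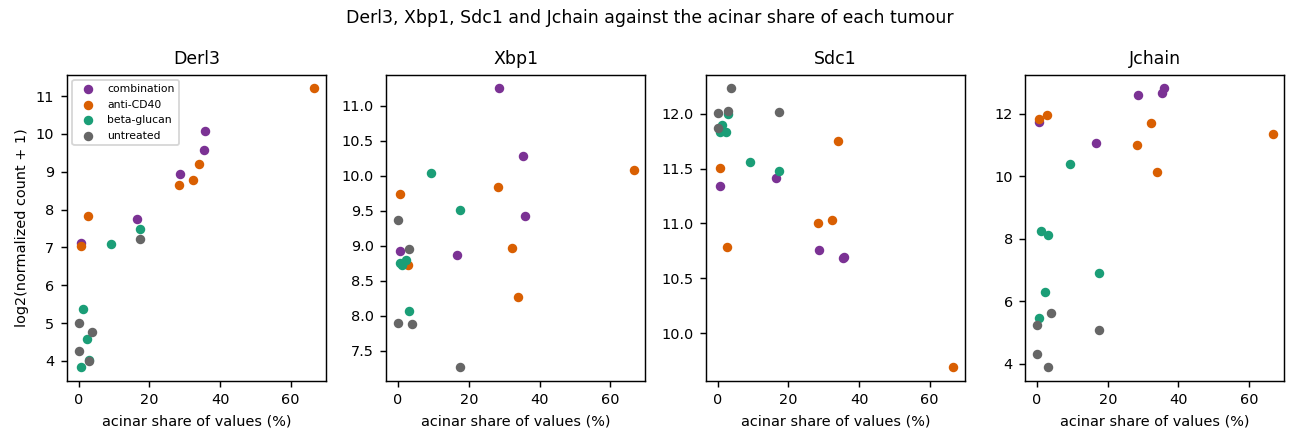
Level of 4 genes in each tumour, as log2(normalized count + 1), against the share of all normalized counts that the acinar genes took (%). Derl3 is highest where the acinar share is highest, up to 2358 normalized counts at 66.6%, whereas Jchain is high in tumours given anti-CD40 at both ends of the acinar range.

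Xbp1 (chr11:5520659-5525893, plus strand), the factor that expands the secretory apparatus, had 484, 2427, 469, 688 and 1247 normalized counts in combination tumours 1 to 5. It ran from 308 through 677 to 1079 after anti-CD40 and from 268 through 436 to 1048 after beta-glucan, and was 239, 658, 494, 236 and 154 in untreated tumours, so that all 4 groups overlapped. It was called higher in the combination (log2 fold change 1.47 ± 0.47, limma adjusted p = 0.0195) and not after anti-CD40 (0.99 ± 0.45, adjusted p = 0.136) or beta-glucan (0.71 ± 0.45, adjusted p = 0.441). The call in the combination was lost without untreated tumour 6 (0.0582), combination tumour 2 (0.0671) or combination tumour 5 (0.0518), and with the acinar covariate (1.36, adjusted p = 0.0783). These 3′ counts do not tell spliced from unspliced Xbp1. Prdm1, the plasma cell repressor Blimp-1 that T cells and myeloid cells also use, averaged 263 ± 83.6, 212 ± 115, 175 ± 55.1 and 156 ± 40.0 normalized counts in the combination, anti-CD40, beta-glucan and untreated groups, and was called in no comparison. With the acinar covariate it was called higher in the combination (log2 fold change 1.11, limma adjusted p = 0.0302).

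Sdc1 (chr12:8771323-8793715, plus strand), the plasma cell antigen CD138, is also a proteoglycan of epithelium, and it was the 1 member that fell. It had 2597, 1726, 2736, 1654 and 1647 normalized counts in combination tumours 1 to 5, ran from 828.6 through 2074 to 3442 after anti-CD40 and from 2857 through 3652 to 4077 after beta-glucan, and was 4111, 3729.6, 4172, 4802 and 4149.8 in untreated tumours. Every tumour given anti-CD40 was below every untreated tumour. The log2 fold change was -1.05 ± 0.26 in the combination (limma adjusted p = 0.00293), -1.07 ± 0.25 after anti-CD40 (adjusted p = 0.00379) and -0.26 ± 0.25 after beta-glucan (adjusted p = 0.633). With the acinar covariate the anti-CD40 call was lost (-0.79, adjusted p = 0.0671). A list of 10 epithelial markers moved in the same direction as Sdc1. All 10 had a log2 fold change below 0 in each comparison with untreated tumours. Called lower were 10 in the combination, 8 after anti-CD40 and 2 after beta-glucan, where 15.8%, 7.56% and 1.32% of all tested genes were called lower. Their summed level was 4082 to 9784 normalized counts in the combination, 4663 to 24981 after anti-CD40, 11374 to 29116 after beta-glucan and 35347 to 46951 in untreated tumours. The part of the epithelium in the fall of Sdc1 was not tested.

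**Figure D4:**
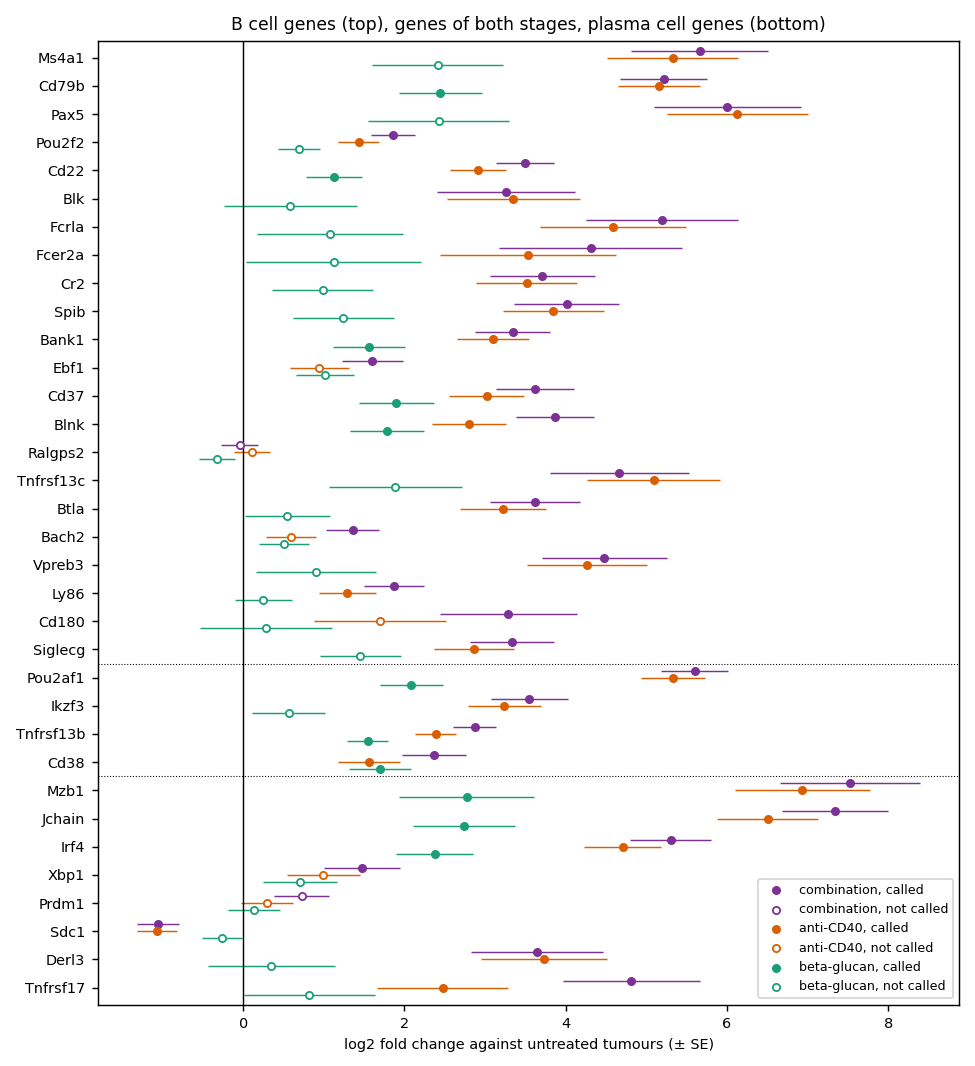
Log2 fold change against untreated tumours (± SE) of the 34 tested genes after the combination, anti-CD40 and beta-glucan. Filled points passed an adjusted p of 0.05 and open points did not. Mzb1 reaches 7.52 in the combination, and Sdc1 lies at -1.05 in the combination and -1.07 after anti-CD40.

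Set against each other, the B cell genes and the plasma cell genes rose by medians of like size, and the plasma cell genes were the more uneven. In the combination 21 of 22 tested B cell genes and 6 of 8 plasma cell genes were called higher, with medians of 3.62 and 4.23 in log2 fold change, where the median of all tested genes was -0.01. Under anti-CD40 the counts were 18 of 22 and 5 of 8 with medians of 3.16 and 3.10, and after beta-glucan 5 of 22 and 3 of 8 with medians of 1.10 and 0.76. Of all tested genes, 18.2% were called higher in the combination, 11% after anti-CD40 and 5.09% after beta-glucan. Their median log2 fold change was 0.002 after anti-CD40 and 0.02 after beta-glucan. All 4 genes of both stages were called higher in the combination and under anti-CD40, and 3 of 4 after beta-glucan. The plasma cell genes ranged from Mzb1 at 7.52 to Sdc1 at -1.05 in the combination, and the B cell genes from Pax5 at 6.003 to Ralgps2 at -0.04. Pax5 had no untreated tumour at 10 or more and Mzb1 was at 0 in 2 untreated tumours, so the sizes of their changes depend on the 1 added before taking logs.

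Within single tumours the mean log2 level of the 8 plasma cell genes exceeded that of the 22 tested B cell genes by a median of 1.66 in the combination, 1.52 after anti-CD40, 1.70 after beta-glucan and 1.79 in untreated tumours. The ranges, 1.62 to 2.49, 1.001 to 2.57, 1.24 to 2.28 and 0.94 to 2.14 in the same groups, overlapped throughout. By contrast, the median level of the B cell genes was 6.91, 6.91, 4.33 and 3.47 in these groups, and that of the plasma cell genes 9.16, 8.43, 6.34 and 5.33. The plasma cell mean includes Sdc1, Xbp1 and Prdm1, which other cells also make. In untreated tumours these averaged 4193, 356 and 156 normalized counts, above each other plasma cell gene, of which Derl3 was highest at 47.7. The difference between the means of the lists therefore does not show the balance of plasma cells and B cells, which was not tested. Anti-CD40 tumour 6 and combination tumour 4 stood highest within their groups in that difference. In anti-CD40 tumour 6, Ms4a1 was at 40.7, Pax5 at 40.7 and Fcer2a at 0 normalized counts, while Jchain was at 2629.7 and Cd79b at 413. In combination tumour 4, Pax5 was at 30.6 and Tnfrsf13c at 9.30, while Jchain, at 7154, and Mzb1, at 1781, were the highest of all 22 tumours. These are the tumours with the highest acinar share of their groups, 66.6% and 35.8%, and the part of acinar RNA in this was not tested. Beta-glucan tumour 5 was the highest of its group for Ms4a1 (96.3), Pax5 (112) and Jchain (1346) alike.

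**Figure D5:**
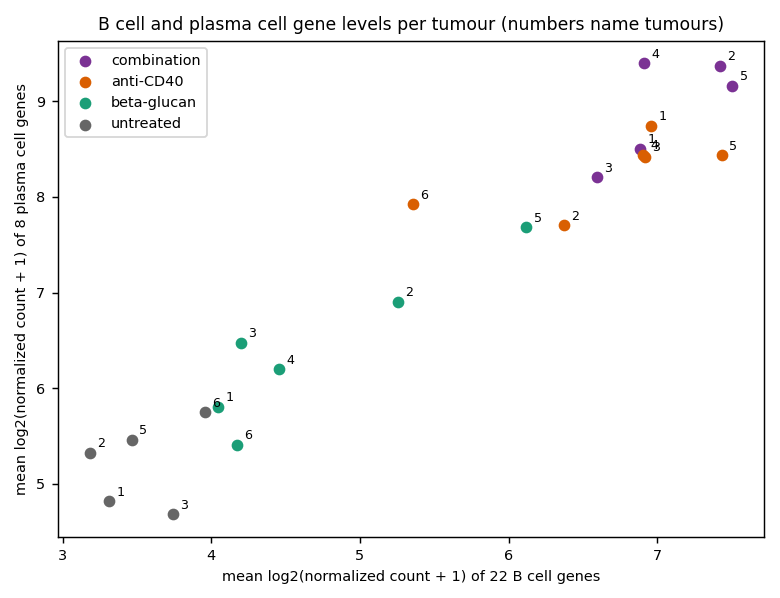
Mean log2(normalized count + 1) of the 8 plasma cell genes (vertical axis) against that of the 22 tested B cell genes (horizontal axis), 1 point per tumour, numbered within its group. Tumours given anti-CD40 lie to the upper right, except that anti-CD40 tumour 6 (5.36 on the horizontal axis) lies left of beta-glucan tumour 5 (6.12), and combination tumour 4 (9.40 on the vertical axis) is the highest point.

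Anti-CD40 was also set against beta-glucan, which asks whether the agents differ in these genes. Anti-CD40 was higher for 16 members and lower for none, where 1.61% of all tested genes were called higher and 0.49% lower. The 16 comprised 10 of 22 B cell genes, 2 of 4 genes of both stages and 4 of 8 plasma cell genes. Pou2af1 differed by 3.24 ± 0.38 in log2 units (limma adjusted p = 8.84e-05), Jchain by 3.76 ± 0.60 (adjusted p = 0.00176), Mzb1 by 4.16 ± 0.80 (adjusted p = 0.00552) and Cd79b by 2.71 ± 0.49 (adjusted p = 0.00298). The count was 10 without beta-glucan tumour 1 or without beta-glucan tumour 6, and 3 (Pou2af1, Jchain and Derl3) when each tumour was scaled to an equal total. With equal totals the adjusted p was 0.0617 for Mzb1 and 0.0657 for Cd79b. Without the 5 tumours above 30% acinar 13 members were called, and Mzb1 (0.057), Cd79b (0.051), Ms4a1 (0.111) and Derl3 (0.177) lost their calls while Bank1 (0.0492) gained one. Shares of all tested genes called are not given here for these alternative fits, so their counts show only how the calls depend on the processing. Ms4a1 (adjusted p = 0.0466), Tnfrsf13c, Fcrla, Cr2, Spib and Derl3 lost their calls in 15, 10, 9, 6, 3 and 3 of the 22 fits that left out 1 tumour, always including that without beta-glucan tumour 1. Their adjusted p then reached 0.139 for Ms4a1, 0.0808 for Tnfrsf13c, 0.0905 for Fcrla, 0.0765 for Cr2, 0.0525 for Spib and 0.0563 for Derl3.

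The combination was higher than beta-glucan for 26 members and lower for 1, Sdc1 (log2 difference -0.79 ± 0.25, limma adjusted p = 0.0346), where 6.49% of all tested genes were called higher and 7.61% lower. The 26 comprised 18 of 22 B cell genes, 3 of 4 genes of both stages and 5 of 8 plasma cell genes. With equal totals 15 members were called. Without the 5 tumours above 30% acinar 21 were, and Ms4a1, Blk, Cd37, Blnk, Sdc1 and Derl3 lost their calls, with an adjusted p of 0.053 for Blnk to 0.189 for Blk. Here too the shares of all tested genes called in these alternative fits are not given. In the main fit the combination and beta-glucan differed as follows. Jchain differed by 4.597 ± 0.63 (adjusted p = 0.000285), Cd22 by 2.36 ± 0.35 (adjusted p = 0.000291) and Tnfrsf17 by 3.99 ± 0.81 (adjusted p = 0.00236). Sdc1 and Blk each lost their call in 7 of the 22 fits without 1 tumour, with an adjusted p of up to 0.0898 and 0.0926. Tnfrsf13c lost it without beta-glucan tumour 1 or 3 or combination tumour 2 or 5, with an adjusted p of up to 0.0751.

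Adding beta-glucan to anti-CD40 changed no member past the threshold. In the combination against anti-CD40, 0 of 34 members were called, where 0.658% of all tested genes were called higher and 0.826% lower. edgeR and DESeq2 on the recovered reads also called 0. An unadjusted limma p below 0.05 was reached by 4 of the 34 members and by 2237 of the 14278 tested genes. That is a smaller share of the members than of all genes, and nothing is read from it about the members. The 4, all with higher means in the combination, were Tnfrsf17 (log2 difference 2.34, 95% interval 0.75 to 3.93, limma adjusted p = 0.141), Blnk (1.07, 0.17 to 1.97, adjusted p = 0.241), Bach2 (0.76, 0.15 to 1.38, adjusted p = 0.221) and Cd38 (0.81, 0.06 to 1.56, adjusted p = 0.307). The 95% intervals of the log2 difference were -0.40 to 2.07 for Jchain, -1.04 to 2.23 for Mzb1, -1.26 to 1.92 for Ms4a1 and -0.95 to 1.06 for Cd79b. A p that misses the threshold does not show that the groups are alike, and differences within these intervals are compatible with the data.

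The interaction takes the effect of the combination and subtracts the effects of both single agents, each against untreated tumours, and asks whether the log2 changes of the single agents add up in the combination. It called 0 of 34 members by limma and by edgeR, where 0% of all tested genes were called higher and 0.021% lower. In the interaction, an unadjusted limma p below 0.05 was reached by 6 of the 34 members and by 1194 of the 14278 tested genes. The 6, all below 0, were Cd79b (-2.38, 95% interval -3.81 to -0.96), Pou2af1 (-1.82, -2.91 to -0.73), Irf4 (-1.79, -3.11 to -0.46), Jchain (-1.91, -3.65 to -0.16), Bank1 (-1.31, -2.56 to -0.07) and Tnfrsf13b (-1.06, -1.76 to -0.36). The smallest limma adjusted p among them was 0.265, for Cd79b. DESeq2 on the recovered reads called 1 member, Pou2af1 (-2.18, adjusted p = 0.0443).

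Other genes of the same pathways were taken from lists by function. Their counts are to be read against the share of all tested genes called higher, 18.2% in the combination, 11% after anti-CD40 and 5.09% after beta-glucan. Of 18 partners in B cell receptor signalling, 13 were called higher in the combination, 12 after anti-CD40 and 10 after beta-glucan, with 1 lower in each. Many of these partners act in myeloid or T cells too, and the list was less B cell-restricted than the members. The kinases Prkcb (log2 fold change 2.14 ± 0.22), Pik3cd (2.34 ± 0.26) and Lyn (1.22 ± 0.18) were called higher after anti-CD40, and all 3 also after beta-glucan. Of 12 tested genes of B cell support and homing, 11 were called higher in the combination, 7 after anti-CD40 and 2 after beta-glucan. Among them Cxcl13, the chemokine that draws B cells into follicles, averaged 212 normalized counts in the combination, 167 after anti-CD40, 32.5 after beta-glucan and 5.52 in untreated tumours (log2 fold change after anti-CD40 4.86 ± 0.56, adjusted p = 1.88e-06). Ltb, the lymphotoxin subunit needed for follicles (3.35 ± 0.49), Ccr6, a chemokine receptor of B cells and others (5.44 ± 0.85), and Ccl19, a chemokine of lymphoid tissue (3.39 ± 0.73), were called higher after anti-CD40 as well.

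Of 8 germinal centre genes, 5 were called higher in the combination, 5 after anti-CD40 and 1 after beta-glucan. Fas, a death receptor of germinal centre and other activated cells (2.27 ± 0.36), Mef2c, a transcription factor (0.97 ± 0.25), Icosl, the ligand of ICOS (1.60 ± 0.47), and S1pr2, a receptor that confines B cells to the germinal centre (0.73 ± 0.25), were among those called after anti-CD40. Of 19 genes of the secretory pathway and the unfolded protein response, 5 were called higher in the combination, 4 after anti-CD40 and 0 after beta-glucan. These small counts are above those shares in the combination and after anti-CD40 and below after beta-glucan, and nothing is read from them about the list. Its median log2 fold changes were 0.73, 0.68 and 0.05 in the same order, where those of all tested genes were -0.005, 0.002 and 0.02. The 4 called after anti-CD40 were Edem1 (1.98 ± 0.33), Edem2 (1.89 ± 0.48), Creld2 (0.94 ± 0.17) and Dnajc3 (0.84 ± 0.29), which help fold or dispose of proteins in the endoplasmic reticulum, an organelle that acinar cells share. Immunoglobulin constant genes were not analysed here, since none of 12 was found by name in the table.

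Markers of other cells were measured beside the members. Here too, 18.2% of all tested genes were called higher in the combination, 11% after anti-CD40 and 5.09% after beta-glucan. Of 11 T cell markers, 11 were called higher in the combination, 9 after anti-CD40 and 0 after beta-glucan. Their summed level was 2251 to 3735 normalized counts in the combination, 1366 to 5913 after anti-CD40, 170 to 715 after beta-glucan and 99.1 to 438 in untreated tumours. Of 10 plasmacytoid dendritic cell markers, a cell type that shares Spib with B cells, 6 were called higher in the combination, 4 after anti-CD40 and 0 after beta-glucan, with 1 lower in the combination and 1 after anti-CD40. Their defining receptor Siglech ran from 9.17 to 74.9, 19.8 to 60.6, 0.950 to 36.7 and 0 to 7.90 normalized counts in the combination, anti-CD40, beta-glucan and untreated tumours. Not all of the list moved this way. The median of Runx2 was 181, 157, 265 and 396 normalized counts in the same groups, and that of Tcf4 was 2991, 2412, 2931 and 2847. Of 6 tested genes of lymph node stroma and vessels, 3 were called higher and 1 lower in the combination and under anti-CD40, and 3 higher after beta-glucan. Clu, the most abundant of these and made by many cell types, was called lower in the combination and after anti-CD40: its median was 19154 normalized counts in the combination, 66114 after anti-CD40, 107765 after beta-glucan and 222692 in untreated tumours. Lyve1 and Mfge8 were called in none of these comparisons. Madcam1, Prox1 and Glycam1 were called higher in all 3 treated groups. Glycam1, made by the high endothelial venules through which lymphocytes enter lymphoid tissue, ran from 11.6 to 79.2, 29.0 to 149 and 7.60 to 32.8 normalized counts in the combination, anti-CD40 and beta-glucan groups, and had no reads in any of the 5 untreated tumours. All 6 pan-leukocyte genes were called higher in all 3 treated groups. Of 10 macrophage markers, 10 were called higher in the combination, 8 after anti-CD40 and 4 after beta-glucan. The counts were 7, 4 and 5 for 8 fibroblast and pericyte markers, 7, 4 and 0 for 25 acinar genes and 7, 7 and 1 for 10 islet markers in the same groups. All 25 acinar genes and all 10 islet markers had log2 fold changes above 0 in each group, though few acinar genes were called. The medians in the same order were 5.28, 5.37 and 2.41 for the acinar genes and 4.21, 4.79 and 3.05 for the islet markers. The part of these cells, or of lymphoid tissue caught in a section, in the levels of the members was not tested.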

How the data were processed

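Tumour RNA from formalin-fixed sections was profiled as 3′ libraries, per the labels' protocols, so values read transcript ends and not isoforms. Per the submitters' processing notes, STAR, DESeq2 and mm10 were used; no source used here names the counting program, annotation or strand setting. The deposited values are a signal, taken here as read counts divided by 1 factor per tumour (normalized counts), as their steps show. Of 395252 values 100% were whole multiples of 1 step per tumour within 0.001 reads, which gave back read counts (in M reads, 6.33 to 21.2 per tumour: 12.2 to 18.8 in the combination, 6.33 to 21.2 after anti-CD40, 7.13 to 8.74 after beta-glucan, 7.38 to 9.34 untreated).

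Groups came from the labels. The 36 members and all lists were chosen with earlier results of these data known. Limma 3.58.1 (R 4.3.3) was fitted to log2(value + 1) of the 14278 genes that reached 10 in 5 or more tumours, with all 4 groups, trended and robust variance moderation and a threshold of 0.05 after Benjamini-Hochberg adjustment within each comparison, two-sided. edgeR 4.0.16 and DESeq2 1.42.0 on recovered reads were alternatives. The procedure was tested on simulated data. Genes given in every tumour, and pathway genes given with values (up to 4 per list, by smallest p under anti-CD40), followed a written rule. 1 gene that the rule names is not reported here. Tnfrsf17, whose values by tumour are also given, Glycam1, Madcam1, Prox1, Clu, Lyve1, Mfge8, Siglech, Runx2 and Tcf4 were chosen after their values were seen. Coordinates are from GENCODE M21 (GRCm38) and promoters from RefSeq. Over 50 within-group pairs of tumours chi-square divided by its degrees of freedom was at least 12.7, so none was counted as 1 library deposited more than once.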

Additional observations from a re-analysis of the deposited data

Results flagged for a closer look

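In 9 of 135 groups of values, the highest or lowest tumour stood apart from the others of its group on the log2 scale by Dixon's criterion; chance flags about 1 in 20 groups. Anti-CD40 tumour 6 was the lowest of its group for 3 B cell genes, with 0 normalized counts of Fcer2a (others 31.1 to 84.2), 19.0 of Cr2 (others 166 to 377) and 35.3 of Bank1 (others 137 to 165). Anti-CD40 tumour 2 was the lowest for Ebf1, at 45.1 (others 149 to 267), and Tnfrsf13c, at 9.53 (others 62.0 to 93.5). Beta-glucan tumour 5 was the highest for Fcrla, at 62.6, where the others had 0 to 3.18. Combination tumour 3 was the lowest for Tnfrsf13b, at 180.9 (others 264 to 300.3). Untreated tumour 6 was the highest for Pou2af1, at 21.3 (others 10.3 to 11.6), and untreated tumour 3 for Cr2, at 25.4 (others 9.49 to 12.5).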

How the results depend on the processing

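No call of a member changed direction under any alternative run. Scaling each tumour to an equal total, acinar genes included, moved the median log2 fold change of all genes to -0.45 in the combination and -0.56 after anti-CD40 against untreated, and to -0.48 in the combination and -0.64 after anti-CD40 against beta-glucan. With those shifts included in the tests against 0, it left 5 members called after beta-glucan against untreated, 3 for anti-CD40 against beta-glucan and 15 for the combination against beta-glucan, and 25 and 29 for anti-CD40 and the combination against untreated. The share of higher among all calls was then 33.3% in the combination and 22.3% after anti-CD40 against untreated, where it was 53.6% and 59.3% as deposited. In the same scaling it was 93.3% for beta-glucan against untreated, 44.1% for anti-CD40 against beta-glucan and 11.1% for the combination against beta-glucan, where it was 79.4%, 76.7% and 46.0% as deposited, and 62.5% for the combination against anti-CD40, where it was 44.3%. With acinar genes left out of the totals, it was 65.1% for anti-CD40 and 28.6% for the combination against beta-glucan. DESeq2 called 1 member in the interaction. Leaving out 1 tumour at a time gave 7 to 13 members called for beta-glucan, 26 to 29 for anti-CD40 and 31 to 32 for the combination against untreated, 10 to 19 for anti-CD40 and 24 to 28 for the combination against beta-glucan, and 0 to 0 for the combination against anti-CD40 and for the interaction. The share of all tested genes called in each alternative fit is not given here, so these counts show only how the calls depend on the processing. Few reads stand behind Tnfrsf17 after beta-glucan and in untreated tumours and behind Cd79a and Cd72 in every group, which limits the precision of those values.

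Tumours that share a number in the titles did not deviate together: over 30 pairs the correlation of deviations ran from -0.27 to 0.34 with a median of 0.028, 8 were over 0.1, and 5 of 22 tumours correlated best with their own number. With the number as a replicate block, 10, 27 and 32 members were called for beta-glucan, anti-CD40 and the combination against untreated, 16 and 28 for anti-CD40 and the combination against beta-glucan, and 0 for the combination against anti-CD40 and the interaction. The shares of all tested genes called with the block are not given here either.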
